A study of Homo sapiens with 3 samples.

Results

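The heat shock proteins of the cytosol and mitochondria were followed through 10 genes in TK-10 cells, a human renal carcinoma line of epithelial origin. The genes were HSPA1A, HSPA1B, HSPA8, DNAJB1, HSPH1, HSP90AA1, HSPB1, HSPD1, HSPE1 and BAG3, and a feature of the array (a probe) was taken as a member when its RefSeq transcript belonged to one of them. The rule uses no measured value, but the genes were listed with earlier results of these data known. All 10 genes had at least 1 matching probe, 15 in all, among 58201 probes on each array, of which 31104 could be named and stood for 22439 genes. Of the 10 genes, 7 had 1 probe, HSPH1 had 2, and HSP90AA1 and HSPB1 had 3 each, and every probe was read on its own.

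RNA was taken after 48 h from cells given the vehicle (0.1% DMSO), cordyceps at 750 μg/mL or sunitinib at 10 μM, with 1 single-colour array for each. Sunitinib is a receptor tyrosine kinase inhibitor used against renal carcinoma. The sample label says cordyceps, whereas the study describes cordycepin, an adenosine analogue made by these fungi. For its microarray the study also states a much lower concentration than the label does. The name in the label is kept here and the files do not settle the agent. All 3 cultures, the vehicle included, grew in a medium whose labelled additives were nicotinamide, troglitazone and zinc sulfate besides serum and antibiotics. Since a condition was 1 array, no test between conditions was possible. Each log2 ratio is instead set beside the 95% limit of the combined signal error that the scanner software gave for the 2 arrays. That error covers the measurement of a spot and not the spread between cultures. The limit was nearly the same for every measured member against the vehicle, 0.40 to 0.44, and so acted much like a fixed fold limit. Some other genes had lower limits, such as 0.13 for GAPDH, so shares past the limit over all probes or genes mix limits of different size.

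Heat shock proteins are chaperones that bind unfolded chains and help them fold, or hold them until they can. HSP70 proteins work in cycles of ATP binding driven by J-proteins, which deliver clients, and by exchange factors, which release them. HSP90 finishes the folding of kinases and steroid receptors, small heat shock proteins hold clients without ATP, and HSP60 with HSP10 forms a folding chamber in the mitochondrial matrix. Under proteotoxic stress the transcription factor HSF1 forms a trimer and binds heat shock elements, inverted repeats of a short unit, in the promoters of many of these genes.

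The arrays differed in brightness before any gene was compared. The 75th percentile of the processed signal was 165 on the vehicle array, 138 with cordyceps and 78.2 with sunitinib, a log2 difference from the vehicle of -0.26 and -1.07. Between 37.8% and 45.5% of probes were well above background, and no spot was saturated. Each signal was divided by its array's 75th percentile, and a ratio below is the log2 ratio of these scaled signals unless it is called unscaled. Of the renal epithelial markers PAX8, PAX2, KRT8, KRT18, EPCAM, VIM and CDH6, 7 of 7 genes had a probe well above background on all 3 arrays. CD3E, PECAM1, ALB and MLANA were not well above background on any array, PTPRC was so on the vehicle and sunitinib arrays only, and CDH5, VWF, COL1A1 and DCN were on all. The log2 ratios of the renal marker probes to the vehicle ran from -2.38 (CDH6) to 0.12 (KRT18) with cordyceps and from -0.46 (PAX8) to 0.77 (PAX2) with sunitinib. The fibroblast markers were lower on both treated arrays: COL1A1 read 5308, 1069 and 385 with vehicle, cordyceps and sunitinib, and the brighter DCN probe read 707, 169 and 31.2, log2 ratios of -1.81 and -3.43. The part of these shifts in the results was not tested.

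The promoters of the members are shown first, since the heat shock element is what most of these genes are known to share. RefSeq promoters of GRCh38.p14 were found for 10 of 10 genes, 14 promoters in all, and the 250 bases before each start were searched for the cores GAANNTTC and TTCNNGAA, each of which reads the same on both strands. The 4 printed here are the near-identical pair HSPA1A and HSPA1B, and HSPA8 and HSP90AA1, whose windows hold runs of adjoining cores. Each reads 5′ to 3′ in the direction of transcription and ends at the base before the start, with the units of every core in capitals. They lie at chr6:31815293-31815542 on the plus strand (HSPA1A), chr6:31827488-31827737 on the plus strand (HSPA1B), chr11:123062137-123062386 on the minus strand (HSPA8) and chr14:102087045-102087294 on the minus strand (the second listed start of HSP90AA1).
HSPA1A: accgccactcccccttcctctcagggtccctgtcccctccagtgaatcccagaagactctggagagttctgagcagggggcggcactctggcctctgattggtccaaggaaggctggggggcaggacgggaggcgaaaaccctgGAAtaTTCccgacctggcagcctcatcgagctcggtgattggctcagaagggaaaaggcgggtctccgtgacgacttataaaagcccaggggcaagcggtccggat
HSPA1B: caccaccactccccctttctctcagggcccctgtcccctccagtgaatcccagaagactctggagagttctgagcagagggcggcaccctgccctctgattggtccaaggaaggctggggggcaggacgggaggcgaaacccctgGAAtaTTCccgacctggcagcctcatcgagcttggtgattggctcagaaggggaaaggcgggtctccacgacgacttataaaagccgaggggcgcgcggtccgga
HSPA8: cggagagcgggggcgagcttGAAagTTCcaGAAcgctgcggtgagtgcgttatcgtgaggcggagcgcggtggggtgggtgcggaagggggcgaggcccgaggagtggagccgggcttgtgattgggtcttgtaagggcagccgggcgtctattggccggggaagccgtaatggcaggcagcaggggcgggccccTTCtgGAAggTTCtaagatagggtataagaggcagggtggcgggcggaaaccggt
HSP90AA1: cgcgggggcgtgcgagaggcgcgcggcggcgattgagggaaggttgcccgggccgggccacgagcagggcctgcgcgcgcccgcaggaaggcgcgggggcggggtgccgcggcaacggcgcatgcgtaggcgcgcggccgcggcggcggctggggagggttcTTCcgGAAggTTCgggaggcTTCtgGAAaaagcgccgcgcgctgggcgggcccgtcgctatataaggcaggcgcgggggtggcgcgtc

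A core was present in 7 of the 14 promoters, 1 for each of 7 genes. Over all 35116 promoters of the table, 11.6% held a core, and 13.96% of the 27305 genes held one in any promoter. HSPA8 held 4 cores, between 230 and 50 bases before its start. HSP90AA1 and HSPD1 held 3 each, at the second listed start only, DNAJB1 held 2 at its second start, and HSPA1A, HSPA1B and HSPB1 held 1 each. A run of 3 inverted units, the form a trimer can bind, stood in the windows of 3 genes, HSPA8, HSP90AA1 and HSPD1, against 0.557% of all genes. No core stood in the windows of HSPH1, HSPE1 or BAG3, which says only that these letters are not within this length.

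The windows of HSPA1A and HSPA1B were identical at 235 of 250 bases (94.0%), with the core 106 bases before the start in the first and 105 in the second. HSPD1 and HSPE1 lie head to head on chromosome 2, and the first listed start of HSPD1 is 105 bases from that of HSPE1. These matches describe sequence and were not tested for binding.

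**Figure D1:**
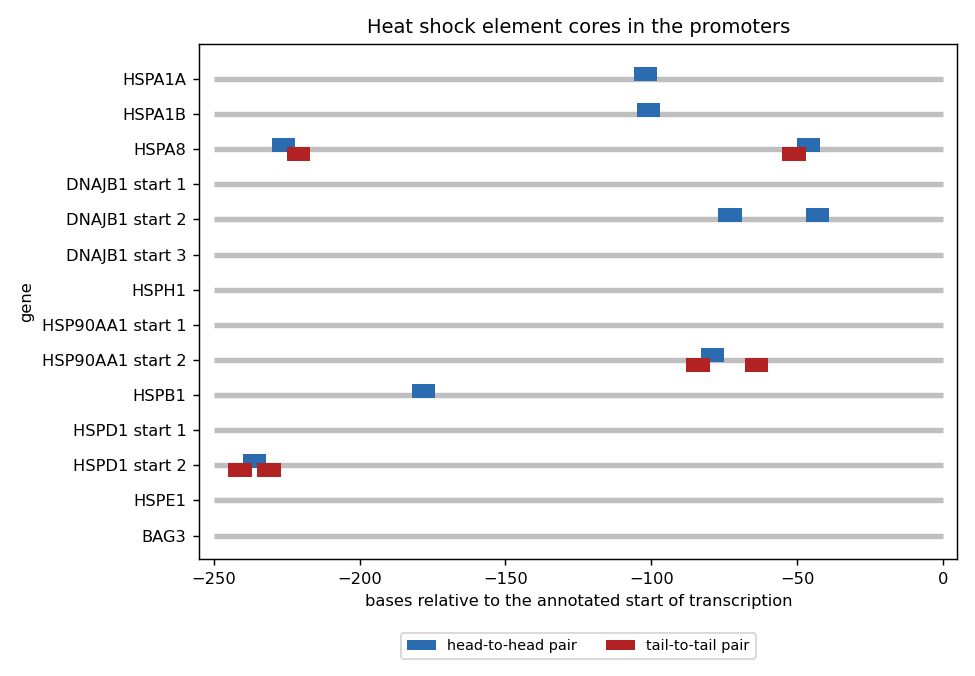
Positions of heat shock element cores in the 250 bases before each RefSeq start of the 10 genes (x axis, bases relative to the start; 1 line per promoter). Blue boxes are cores with the units facing each other and red boxes the opposite order; adjoining boxes of both colours, as in HSPA8, HSP90AA1 start 2 and HSPD1 start 2, make the longer form, and 7 of 14 lines carry no box.

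On the arrays, 14 of the 15 probes were well above background in all 3 conditions. Against the vehicle, 12 of these 14 probes were higher on the cordyceps array and 2 lower, by any amount, with a median log2 ratio of 0.36 beside 0.00 over all 21600 probes measured on both arrays. On the sunitinib array the same probes split into 7 higher and 7 lower, with a median of 0.06 beside 0.05 over 21623 probes. These splits depend on the scaling: with cordyceps they became 14 to 0 with median scaling and 9 to 5 unscaled, and with sunitinib 3 to 11 and 1 to 13. The sunitinib median was also below 0 under both, at -0.27 and -1.01, and with quantile normalization (-0.31) and normexp (-0.36). HSPA1B had the highest ratio of the members in both comparisons. On all 7 probes of HSPH1, HSP90AA1, HSPD1 and HSPE1, the ratio was above 0 with cordyceps and below 0 with sunitinib, there from -0.01 to -0.77. These genes are named for their signs, and the share of all probes with such signs was not counted. The medians of most gene lists below had these signs too, the housekeeping genes included (0.02 and -0.05). Those of the regulators, the other small heat shock proteins and the exchange factors did not.

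More than 2-fold higher than the vehicle were 0 of 14 probes with cordyceps (3.60% of all 26872 probes compared) and 1 with sunitinib, HSPA1B (8.08% of 27147). More than 2-fold lower were 0 with cordyceps (2.49% of all) and 0 with sunitinib (5.67%). By the smaller measure of the 95% error limit, 6 of 14 probes were higher with cordyceps, where 14.5% of all probes were, and 0 were lower, where 13.2% were. The 6 were HSPA1B, HSPD1, both HSPH1 probes, and HSP90AA1 A_33_P3665777 and A_23_P162874, so some genes count more than once. With sunitinib 2 were higher, HSPA1B and HSPA8 (25.8% of all probes), and 3 lower (20.0%).

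**Figure D2:**
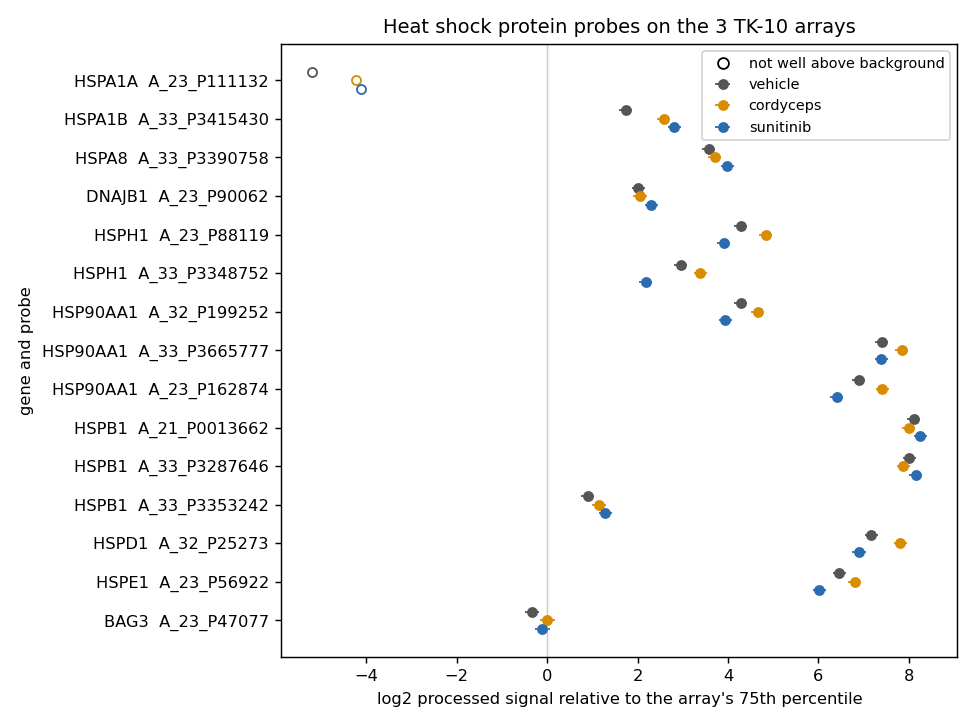
Scaled signal of each heat shock protein probe (x axis, log2 of the processed signal relative to the array's 75th percentile) on the vehicle, cordyceps and sunitinib arrays; bars are the software's signal error and open circles are not well above background. HSPA1B sits to the right of the vehicle with both agents, HSPH1 and HSPD1 on either side of it, and HSPA1A at background throughout; positions of different probes are not comparable with each other.

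The inducible HSP70s were read by 1 probe each. HSPA1A and HSPA1B lie close together on chromosome 6 and encode nearly the same protein. The genes' transcripts are so alike that the HSPA1B probe may also read HSPA1A, which was not tested. The HSPA1A probe stayed at background, as given below, so it showed no signal of either transcript. For HSPA1B the processed signal was 547 with vehicle, 824 with cordyceps and 549 with sunitinib. Unscaled, the vehicle and sunitinib signals were therefore almost equal, and only the cordyceps signal stood apart.

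Relative to each array's 75th percentile, HSPA1B was 1.80-fold higher with cordyceps (log2 ratio 0.85, limit 0.40) and 2.11-fold higher with sunitinib (1.08, limit 0.40). These ratios were above those of 95.8% and 94.2% of all probes measured on both arrays. Between the treated arrays the log2 ratio of sunitinib over cordyceps was 0.23, within its limit of 0.40. Over 11 ways of processing, the ratio ranged from 0.59 to 1.07 with cordyceps and from 0.00 to 1.20 with sunitinib.

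HSPA1A gave no measurement of its transcript. Its probe was printed in 10 spots, with a mean of 4.49 on the vehicle array, 7.30 on that of cordyceps and 4.50 on that of sunitinib. The faintest signals counted as well above background on these arrays were 18.2, 30.2 and 18.3. No HSPA1A spot used was significantly above its background on any array, so no ratio is given, and the pair is represented by the HSPA1B probe alone.

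HSPA8, the constitutive HSP70 of the cytosol, read 1960, 1797 and 1236 in the order vehicle, cordyceps, sunitinib. Its only probe is annotated to a single RefSeq transcript, and whether it reads every transcript of HSPA8 was not checked. Its log2 ratio was 0.13 with cordyceps, inside the limit of 0.40, and 0.41 with sunitinib, just past it. The sunitinib value does not keep its sign in other processing: it was -0.66 unscaled, and -0.09 when the median log2 ratio of the surrounding 7 by 7 spots was taken from every spot and the arrays were scaled anew. Those medians, 0.87 with cordyceps and 1.09 with sunitinib, were the highest around any measured member probe. The windows took in gene spots of any brightness, and only 37.8% to 45.5% of probes were well above background. The medians were above 0 around every measured member, beside medians of 0.00 and 0.05 over all measured probes. Removing them thus also takes the shift of dim spots from a brighter probe.

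DNAJB1, the heat-inducible J-protein that stimulates HSP70, read 663 with vehicle, 572 with cordyceps and 387 with sunitinib. Both ratios, 0.04 and 0.30, were inside the limit. The promoter window of its second start holds a pair of cores, as given above.

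HSPH1 is the HSP110 protein, a large relative of HSP70 that serves as its exchange factor. Probe A_23_P88119 read 3192 with vehicle, 3942 with cordyceps and 1173 with sunitinib, and probe A_33_P3348752 read 1276, 1443 and 355. Both probes were highest with cordyceps and lowest with sunitinib.

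With cordyceps, the log2 ratios of the HSPH1 probes were 0.56 and 0.43, each past its limit. With sunitinib they were -0.37 and -0.77, and only the second was past its limit. HSPH1 was above the vehicle with cordyceps and below it with sunitinib on both probes under all 11 ways of processing.

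HSP90AA1 is the stress-inducible cytosolic HSP90. Its probes A_33_P3665777 and A_32_P199252 are annotated to the longer RefSeq transcript and A_23_P162874 to the shorter one. Probe A_23_P162874 read 19563 with vehicle, 23475 with cordyceps and 6648 with sunitinib. Probe A_33_P3665777 read 27913, 31720 and 13134 in the same order, and A_32_P199252 read 3207, 3481 and 1196.

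All 3 HSP90AA1 probes were highest with cordyceps and lowest with sunitinib in unscaled signal. Their log2 ratios with cordyceps were 0.52, 0.44 and 0.37, of which the first and second passed the limit. With sunitinib the ratios were -0.48, -0.01 and -0.35, and only that of A_23_P162874 passed it. The probes thus disagreed in size with sunitinib, and A_33_P3665777 turned higher than the vehicle in 1 of the 11 ways of processing, that with the local median removed.

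HSPB1 encodes HSP27, the small heat shock protein of most cells. Probe A_21_P0013662 read 45444 with vehicle, 35129 with cordyceps and 23832 with sunitinib, and A_33_P3287646 read 42506, 32452 and 22199. Their ratios were -0.12 and -0.13 with cordyceps and 0.14 for both with sunitinib. The dimmer probe A_33_P3353242 read 306, 305 and 191, with ratios of 0.25 and 0.39. All of these were inside the limit, and the direction of each changed with the scaling in both comparisons.

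The mitochondrial chaperonins are transcribed from opposite strands of the shared region described above. HSPD1, which encodes HSP60, read 23654 with vehicle, 30924 with cordyceps and 9322 with sunitinib. HSPE1, which encodes its lid HSP10, read 14492, 15452 and 5070. Both genes had the order cordyceps, vehicle, sunitinib from highest to lowest.

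With cordyceps the log2 ratio was 0.64 for HSPD1, past its limit, and 0.35 for HSPE1, inside it. With sunitinib it was -0.27 for HSPD1, inside the limit, and -0.44 for HSPE1, past it. Neither gene changed direction over the 11 ways of processing in either comparison.

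BAG3 is an HSP70 exchange factor that directs clients to autophagy and is itself a target of HSF1. Its probe, the dimmest of those measured, read 131 with vehicle, 138 with cordyceps and 72.4 with sunitinib. The log2 ratios of 0.34 and 0.22 were inside limits of 0.44.

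**Figure D3:**
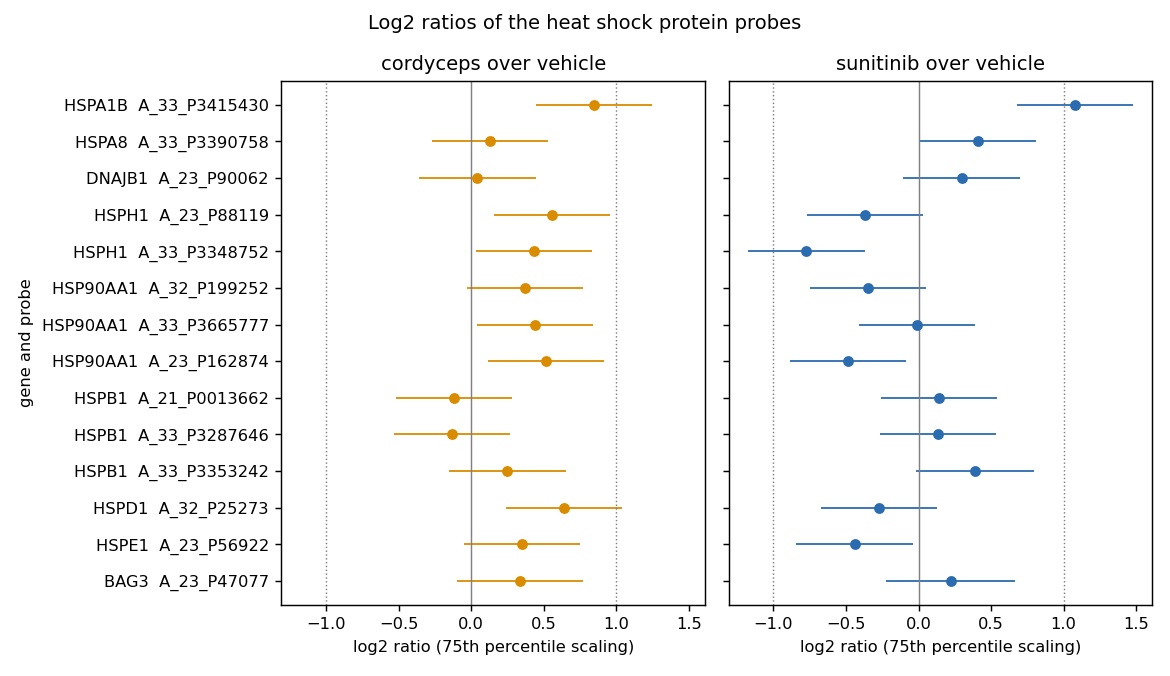
Log2 ratio to the vehicle (x axis, 75th percentile scaling) of the 14 measured heat shock protein probes on the cordyceps array (left) and the sunitinib array (right); bars are the 95% limits of the combined signal error and dotted lines mark 2-fold. With cordyceps 12 of 14 points lie above 0, and with sunitinib 7 do, HSPA1B being the point past the 2-fold line.

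The treated arrays were also set against each other, a comparison added after the values were seen. Sunitinib over cordyceps had a median log2 ratio of -0.29 over the 14 probes, beside 0.07 over all 20301 probes measured on both. More than 2-fold lower were 2 probes, one of HSPH1 and one of HSP90AA1 (8.99% of all probes), and 0 were more than 2-fold higher (8.96%). Past the 95% limit, 7 were lower (22.4% of all) and 0 higher (27.0%). The 7 were both HSPH1 probes, the 3 HSP90AA1 probes, HSPD1 and HSPE1, with ratios from -0.45 to -1.21.

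A change of scale moves every ratio of an array alike, so differences between members do not depend on it. Each member's log2 ratio was therefore also taken less that of HSPA8, a step that was not planned. For sunitinib over cordyceps HSPA8 had the highest ratio of the members, 0.28. Every other member therefore lies below it through this choice of reference, and the share of all probes past the limit from HSPA8 was not counted. For sunitinib over cordyceps, HSPA1B (-0.05), DNAJB1 (-0.02) and the HSPB1 probes (-0.02, -0.01 and -0.14) lay close to HSPA8, and BAG3 was at -0.40, all inside limits of 0.57 to 0.61. HSPH1 was at -1.21 and -1.48, HSP90AA1 at -0.73 to -1.28 over its 3 probes, HSPD1 at -1.19 and HSPE1 at -1.07. Removing the local median, which is large around HSPA8, brought BAG3 to -0.63, past its limit, and HSP90AA1 A_33_P3665777 to -0.50, inside it. The other 6 probes of HSPH1, HSP90AA1, HSPD1 and HSPE1 stayed past the limit under all 11 ways of processing, and HSPA1B, DNAJB1 and HSPB1 inside it. Only quantile normalization, normexp and the removal of the local median can change these differences, and the other ways leave them as they are.

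Against the vehicle, the same subtraction left HSPA1B 0.72 above HSPA8 with cordyceps and 0.67 above it with sunitinib. Each was past its limit of 0.57, also with quantile normalization, normexp and the local median removed, the ways that change these differences. With cordyceps no other member differed from HSPA8 beyond its limit, and HSPD1 was the nearest at 0.51. That does not hold with the local median removed, where HSPA8 itself was at -0.36 and 9 more probes than HSPA1B lay past the limit, up to 1.03 above HSPA8 at HSP90AA1 A_32_P199252, and HSPD1 just passed the limit with quantile normalization as well. With sunitinib HSPA8 itself was at 0.41, below only HSPA1B among the members, which widens the distance of the lower ones. HSPH1 lay 0.78 and 1.18 below HSPA8, HSPD1 0.68 below and HSPE1 0.85 below. HSPD1 alone, without the subtraction, was at -0.27 and inside its limit. HSP90AA1 lay 0.89, 0.76 and 0.42 below, of which the last was inside the limit. With the local median removed, HSPE1 (0.26 below), HSPH1 A_23_P88119 (0.38 below) and HSP90AA1 A_32_P199252 (0.29 below) came inside it, and HSPH1 A_33_P3348752, HSP90AA1 A_23_P162874 and HSPD1 stayed past it. Quantile normalization put HSP90AA1 A_33_P3665777 and both bright HSPB1 probes past the limit, at -0.77, -0.73 and -0.70.

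**Figure D4:**
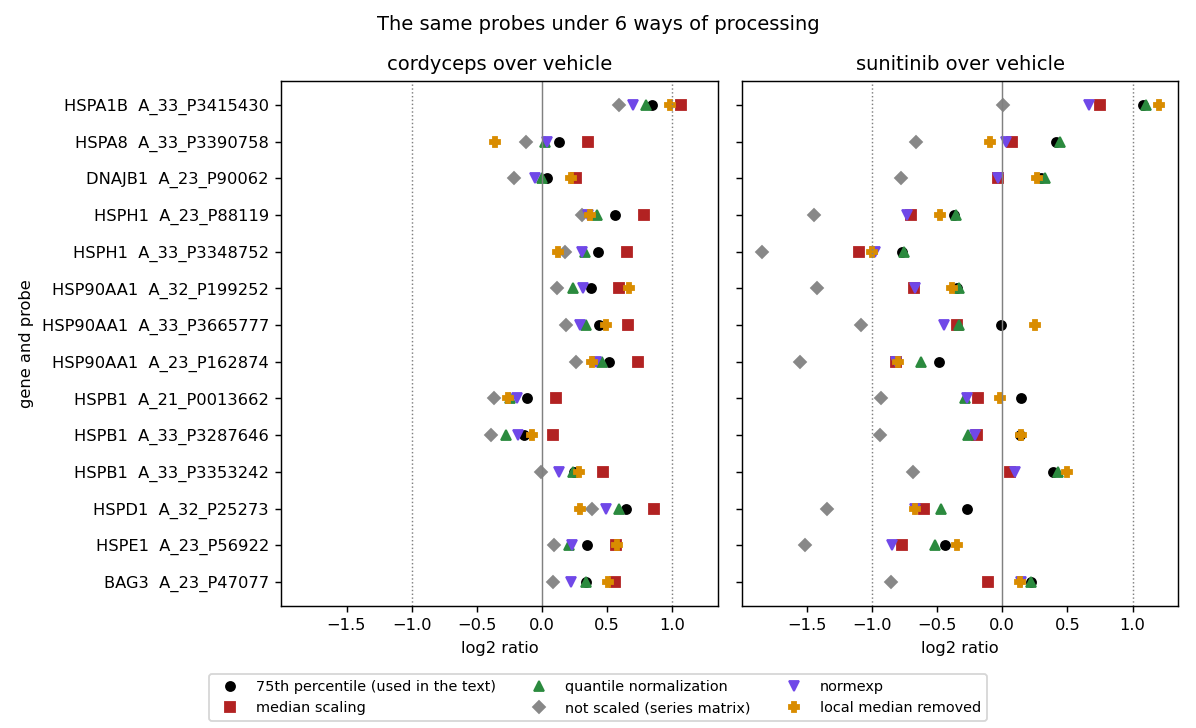
Log2 ratio to the vehicle (x axis) of the same 14 probes under 6 ways of processing, for cordyceps (left) and sunitinib (right); dotted lines mark 2-fold. Leaving out the scaling shifts all sunitinib points to the left together, down to 0.00 for HSPA1B, while HSPH1, HSPD1 and HSPE1 lie below 0 with every marker.

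Other genes of the chaperone network were read from the brightest probe of each. For these gene-level counts, the share of all genes compared that passed 2-fold was 2.99% upward and 2.76% downward with cordyceps, and 6.50% and 6.53% with sunitinib. Past the 95% error limit these shares were 15.5% higher and 13.9% lower with cordyceps, and 22.9% higher and 22.3% lower with sunitinib. HSF1, the master regulator, read 17327, 15870 and 10808 with vehicle, cordyceps and sunitinib, log2 ratios of 0.13 and 0.39 inside the limit of 0.40; another HSF1 probe was at 0.18 and 0.51. Of the 4 heat shock regulators none passed 2-fold. HSF2 was the highest of them with cordyceps at 0.44, and the HSF1-binding protein HSBP1 the lowest with sunitinib at -0.30. The other HSBP1 probe was at 0.37 with sunitinib.

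Other members of the HSP70 family had a median log2 ratio of 0.38 with cordyceps and -0.66 with sunitinib over 5 genes measured. HSPA4L, an HSP110 relative, was past 2-fold with cordyceps, reading 218 with vehicle and 384 with cordyceps (log2 ratio 1.07), the only one of 7 compared. HSPA4, another HSP110 relative, was past 2-fold lower with sunitinib, reading 7834 with vehicle and 1754 with sunitinib (-1.09), again 1 of 7. The strictly inducible HSPA6 read 21.8, 7.68 and 8.38, and only the vehicle signal was well above background, so no ratio is given. The lowest with cordyceps was HSPA14 at -0.23, and HSPA4L was the highest with sunitinib at 0.18.

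Of 14 measured genes of HSP90 and its co-chaperones, the median was 0.28 with cordyceps, 5 were higher past the error limit (15.5% of all genes) and 0 lower (13.9%). FKBP5, an immunophilin bound to HSP90, was the highest at 0.99, and the constitutive HSP90AB1 the lowest at -0.19, with its other probe at 0.15. With sunitinib the median was -0.06 over 13 measured genes, from UNC45A at 0.48 to CHORDC1 at -1.10, the latter the 1 gene past 2-fold of 14 compared. HSP90AB1 was at 0.09 with sunitinib, with its other probe at -0.30.

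Among 13 other J-proteins, the median was 0.14 with cordyceps and -0.30 with sunitinib. DNAJC8 alone passed 2-fold with cordyceps, at 2.32, and its spot lay in a bright streak of 580 spots on the cordyceps array, so that it drops out when those spots are left out. With sunitinib the J-proteins ranged from DNAJA2 at 0.45 to DNAJC2 at -0.75, and with cordyceps the lowest was DNAJC7 at -0.25. The cytosolic chaperonin TRiC and prefoldin had medians of 0.13 and -0.34 over 12 measured genes. PFDN2 was the highest of these with cordyceps at 1.57, the only one past 2-fold of 13 compared, and the lowest with sunitinib at -0.97, and PFDN5 was the reverse at -0.10 and 0.79.

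The median of the mitochondrial chaperones and proteases had the signs of HSPD1 and HSPE1, as did those of most lists here. Over 15 genes it was 0.27 with cordyceps, with 4 higher past the limit (15.5% of all genes) and 0 lower (13.9%). With sunitinib it was -0.23, with 1 higher (22.9%) and 8 lower (22.3%). The 4 higher and the 8 lower both include DNAJA3, at 0.19 and -0.16, whose limit was only 0.13. HSPA9, the HSP70 of the matrix, read 2424, 3095 and 574, log2 ratios of 0.61 and -1.003, and was the 1 gene past 2-fold with sunitinib. TRAP1, the mitochondrial HSP90, was the highest with cordyceps at 0.68 and read -0.75 with sunitinib. The lowest with cordyceps was GRPEL2 at -0.27, and the highest with sunitinib was HSCB at 0.85, with its other probe at -0.20.

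Small heat shock proteins other than HSPB1 had a median of -0.07 over 4 measured genes with cordyceps and -0.20 over 5 with sunitinib. CRYAB, αB-crystallin, was the highest with cordyceps at 0.49 and the lowest with sunitinib at -0.97, and HSPB8, a partner of BAG3, was at -0.38 and -0.60. HSPB9 was past 2-fold with sunitinib at 1.14, from signals of 22.1 and 23.1 that were near the background limit. The 6 other BAG and exchange factors had medians of -0.07 and -0.29. BAG1 read 1988 with vehicle and 2178 with sunitinib (log2 ratio 1.21, its other probes 1.00 and 1.07) and was -0.58 with cordyceps. SIL1, an exchange factor of the endoplasmic reticulum, was at -1.32 with sunitinib, and with cordyceps the range ran from BAG5 at -0.60 to BAG4 at 0.27.

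Chaperones of the endoplasmic reticulum were set beside these for comparison. With sunitinib 7 of 14 genes were below the 2-fold line, with a median of -0.97 over the 13 measured on both arrays and the lowest value, -1.44, at HSPA5, the HSP70 of that compartment. The 7 were HSPA5, HSP90B1, HYOU1, DNAJB11, DNAJC3, PDIA3 and PDIA4, of which HYOU1 is at least 2.03-fold lower, its sunitinib signal not being well above background. DNAJB9 was the highest at -0.19. With cordyceps the median was 0.12 and none passed 2-fold, from CRELD2 at -0.66 to HSPA5 at 0.96.

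The last list held 14 genes known to be induced by heat shock, of which HSPA4L, CHORDC1 and FKBP4 also stand in lists above and add no new calls here. Of the 14, 1 was more than 2-fold higher with cordyceps, HSPA4L, and 0 lower, with a median of 0.31. ZFAND2A was the lowest of them at -0.24. With sunitinib the median was -0.19, none was more than 2-fold higher, and 4 were lower: JUN (-1.66), the collagen chaperone SERPINH1 (-1.30), CHORDC1 (-1.10) and ATF3 (-1.10). DEDD2 was the highest at 0.75. Of the 4 ATF3 probes 3 were lower with sunitinib and the other was at 0.35.

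The 10 housekeeping genes show the spread of genes chosen for no link to heat shock. Their median was 0.02 with cordyceps, from GAPDH at -0.36 to HPRT1 at 0.94, and -0.05 with sunitinib, from HPRT1 at -0.74 to RPLP0 at 1.04. Probes as bright as that of HSPD1, with a vehicle signal above 10000, had a median of 0.06 with cordyceps and 0.27 with sunitinib.

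**Figure D5:**
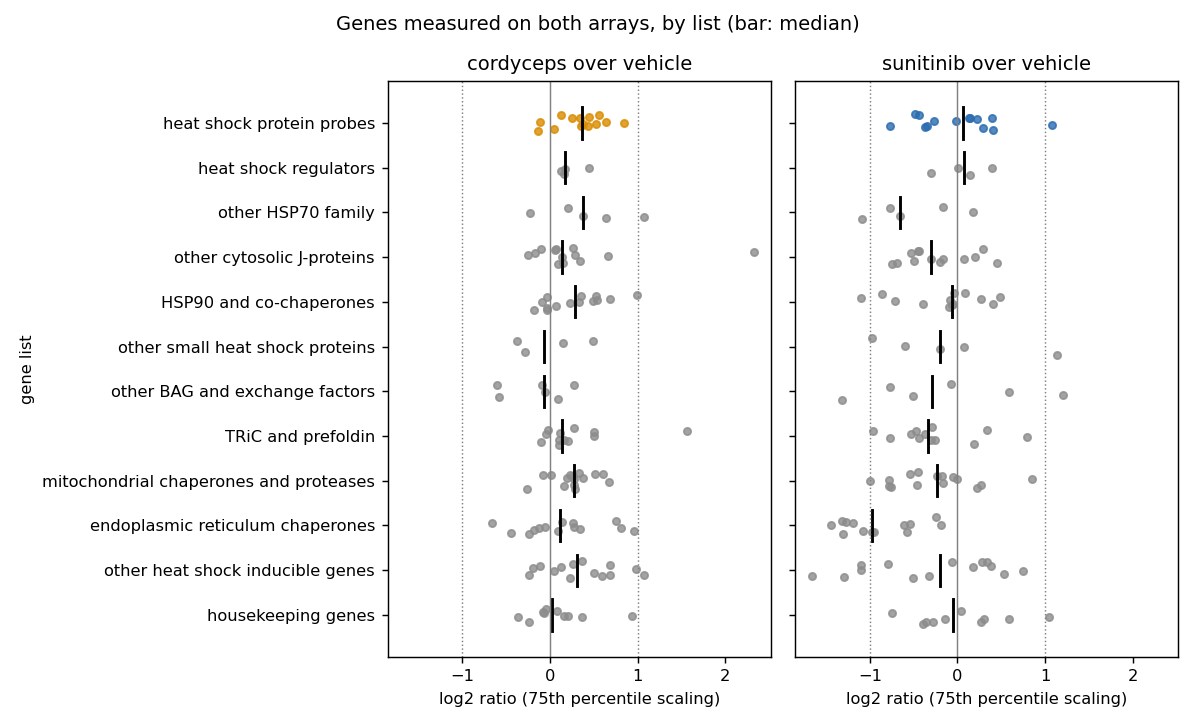
Log2 ratio to the vehicle (x axis, 75th percentile scaling) of the heat shock protein probes (coloured, top) and of the genes of each chaperone list measured on both arrays (grey), with cordyceps (left) and sunitinib (right); black bars are medians and dotted lines mark 2-fold. The medians of the lists lie between -0.07 and 0.38 with cordyceps, and with sunitinib the endoplasmic reticulum chaperones lie farthest to the left at -0.97.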

How the data were processed

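RNA of 3 TK-10 cultures was hybridised to single-colour (Cy3) Agilent arrays, 1 per condition. The authors deposited Feature Extraction 11.5.1.1 output, with genome build hg19 in its header, in which the processed signal is an intensity on a linear scale after background subtraction, beside its error and spot flags. Per the file headers, flags (other values coded 0 or 1) mark outliers, saturation and signal well above background. The deposited series matrix holds the same intensity averaged per probe and unscaled. The study's methods describe a red over green ratio on another array and do not mention sunitinib; only their 2-fold limit was used. Depth is not defined for arrays, whose number limits the precision.

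Control and outlier spots were left out, spots of a probe averaged, and log2 of the signal taken relative to the 75th percentile over all probes. A probe was compared when either array of a pair showed it well above background. A dim side was raised to the lowest signal well above background if lower, as a bound, and no ratio is given where that bound was not above 1; such genes count as compared. Probes were named through RefSeq accessions. The 95% limit is 1.96 times the combined error. With 1 array a condition no test was run.

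All members were named. Of each list, the highest and lowest gene of each comparison, HSF1, and genes past 2-fold where 5 or fewer were named; HSPA6, TRAP1, HSPA9 and the other genes given beside a list were added after their values were seen. The members and lists were chosen with earlier results of these data known. Alternatives changed the scaling, background correction (normexp, offset 50, on median signals), dim-probe filter and outlier spots. They also changed the treatment of several probes and the fold limit, or took away the local median of spots of any brightness. The comparison of sunitinib with cordyceps and the removal of the streak were added after seeing the data. The streak was windows of 7 by 7 spots over a log2 excess of 1. The subtraction of HSPA8 was not planned. Python 3.11.15, numpy 2.4.6, pandas 2.3.3, R 4.3.3 and limma 3.58.1 were used, and the calculation was tested on simulated data. Protein sequences were not used here.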

Additional observations from a re-analysis of the deposited data

Results flagged for a closer look

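One of the 10 HSPA1A spots on the cordyceps array read 941 and had been marked as an outlier by the scanner software, so it entered no value of the report. It lay in the bright streak of that array. The spot at the same position read 4.83 with vehicle and 4.71 with sunitinib. The other spot left out on the cordyceps array read 7.08, and the 8 that were used read from 6.51 to 8.26.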

How the results depend on the processing

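No paired analysis was possible because each condition had 1 array, and for the same reason no array could be left out. Of the counts and medians under the alternatives, 90 stayed near the value in the report and 24 moved; of the values of single probes and of lists, 972 stayed, 238 moved by more, and 2, both of HSPA8, changed sign from a ratio past its limit. Counted whether inside the limit or past it, 43 of 420 values of single probes and 22 of 264 list medians had another sign than reported. With the median of all probes as the scale, the median of the heat shock protein probes was 0.58 with cordyceps, -0.27 with sunitinib and -0.84 for sunitinib over cordyceps; 1 probe was more than 2-fold higher with cordyceps, 0 higher and 1 lower with sunitinib, and 7 lower for sunitinib over cordyceps. Unscaled, the medians were 0.11, -1.01 and -1.10, with 0 higher and 7 lower with sunitinib and 7 lower for sunitinib over cordyceps. Normexp gave a median of -0.36 with sunitinib, 0 higher, and 5 lower for sunitinib over cordyceps, and quantile normalization a median of -0.31 with sunitinib. With no filter, 2 probes were higher with sunitinib, the added one being HSPA1A, dim on both arrays. At 1.5-fold, 2 were higher with cordyceps, 1 lower with sunitinib and 6 lower for sunitinib over cordyceps. The 2-fold count of lower probes for sunitinib over cordyceps, 2 in the report, was 1 with the percentile over detected probes, 0 with the brightest probe and 1 with the mean of a gene's probes. HSPA8 with sunitinib turned to -0.66 unscaled and -0.0939 with the local median removed; the cause was not tested. Median scaling moved the median of all probes by 0.22 with cordyceps, -0.33 with sunitinib and -0.55 between them, and no scaling by -0.26, -1.07 and -0.82. The share of 2-fold calls over all probes that were higher was 59.1%, 58.8% and 49.9% in the 3 comparisons, against 79.8%, 28.3% and 9.83% with median scaling, 31.6%, 3.07% and 4.19% unscaled, and 61.9%, 40.8% and 29.1% with normexp. In the same order, higher and lower calls numbered 968 and 670, 2193 and 1540, and 2146 and 2154 over all probes. They numbered 1469 and 372, 1271 and 3214, and 620 and 5688 with median scaling, 666 and 1444, 421 and 13281, and 378 and 8634 unscaled, and 425 and 262, 773 and 1120, and 625 and 1525 with normexp. Signal over background limits HSPA1A to no value and HSPA6 to the vehicle array.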
